A study of Mus musculus with 8 samples.

Results

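The 10 microRNAs (miRNAs) described here come from a pair of mouse polycistrons, miR-17-92 (7 of them: mmu-miR-17-5p, mmu-miR-17-3p, mmu-miR-18a-5p, mmu-miR-19a-3p, mmu-miR-20a-5p, mmu-miR-19b-3p and mmu-miR-92a-3p) and miR-106b-25 (mmu-miR-106b-5p, mmu-miR-93-5p and mmu-miR-25-3p). The prefix mmu, for mouse, is left out from here on. They were found by name among the 1881 mouse miRNAs of the array. Each was measured in the culture medium of primary mouse myocytes, the muscle precursor cells grown from the hind leg of newborn pups. The 8 samples formed 3 groups of transwell co-cultures, written as bottom chamber/insert. In G93A/G93A (n = 3) both compartments held cells with the G93A mutant of human SOD1, in G93A/WT (n = 3) the bottom chamber held mutant cells and the insert cells with wild-type human SOD1, and in WT/WT (n = 2) both held cells with wild-type human SOD1. All pups therefore carried a human SOD1 transgene on the B6SJL background, and no culture was free of one. The mutant line is a mouse model of amyotrophic lateral sclerosis. Pups were 1 to 3 days old, the samples are labelled male, and no litter or culture day is given. Cells were seeded at 2.5 in the bottom chamber and 1.5 in the insert (both in 1e5 cells), on either side of a membrane with pores of 0.4 µm, and medium was taken at 2 days in vitro. Cells grew in 10% foetal bovine serum before a change to 2% horse serum, and which of these media was taken is not in the labels. A serum miRNA with the same sequence as a mouse one would give signal on the same probe. Cell-free medium was not analysed here. In medium, release by fewer cells and release of less RNA per cell cannot be told apart. Since 150 ng of small RNA was labelled per sample and signals were scaled between arrays, a change shared by all miRNAs would not show.

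A polycistron is 1 transcript that is cut into several hairpins, each of which gives a mature miRNA from one or both of its arms. The miR-17-92 transcript is induced by MYC and E2F factors and is high in dividing cells, including proliferating myoblasts. Its products hold back cell cycle inhibitors such as Cdkn1a and the pro-apoptotic gene Bcl2l11. The miR-106b-25 cluster is its paralogue and lies inside Mcm7, a subunit of the helicase that unwinds DNA for replication. A miRNA finds its targets mainly through its seed, bases 2 to 8, so members with the same seed share many targets whichever cluster they come from. Outside cells, miRNAs are carried in vesicles or bound to Argonaute proteins.

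In RefSeq on GRCm38.p6, the miR-17-92 hairpins span chr14:115043671-115044506 on the plus strand, and the miR-106b-25 hairpins span chr5:138165321-138165818 on the minus strand, within the Mcm7 gene (chr5:138164583-138172111). All 10 mature sequences were matched by name in RefSeq, and they are shown because 5 distinct seeds cut across the clusters. They run 5′ to 3′ with the seed in capitals.
miR-17-5p: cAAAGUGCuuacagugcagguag
miR-20a-5p: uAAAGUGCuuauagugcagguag
miR-106b-5p: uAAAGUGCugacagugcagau
miR-93-5p: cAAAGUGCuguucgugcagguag
miR-18a-5p: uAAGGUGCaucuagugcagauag
miR-19a-3p: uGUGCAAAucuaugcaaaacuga
miR-19b-3p: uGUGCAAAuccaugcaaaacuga
miR-92a-3p: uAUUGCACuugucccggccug
miR-25-3p: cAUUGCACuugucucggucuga
miR-17-3p: aCUGCAGUgagggcacuuguag

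The seed AAAGUGC belongs to 4 members, 2 from each cluster, and AUUGCAC to 1 member from each. Counted from 1 at the 5′ end, miR-20a-5p differs from miR-17-5p by C1U and C12U, miR-106b-5p by C1U, U10G and G20A over the 21 bases they share, and miR-93-5p by U10G, A11U, C12U and A13C. MiR-19b-3p differs from miR-19a-3p by U11C alone, and miR-25-3p from miR-92a-3p by U1C, C14U and C18U over 21 bases. Signal on the probe of one of these members may include its near-identical relative, which the files do not resolve. MiR-19b-3p and miR-92a-3p have a second hairpin each on chromosome X, in the miR-106a-363 cluster, so their signals cannot be assigned to miR-17-92 alone.

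Between 450 and 563 miRNAs were detected per array, where detected means a signal above 3 times its own error. Signals were scaled between arrays on the 423 miRNAs detected on all 8, a floor was set at log2 0.60 for undetected miRNAs, and the 538 miRNAs detected on at least 2 arrays were compared with limma. The scale factors were 1.16, 1.31 and 0.973 for the G93A/G93A arrays, 0.933, 0.593 and 0.755 for G93A/WT, and 1.44 and 1.13 for WT/WT, so that G93A/WT 2 and 3 were the brightest arrays and WT/WT 1 the dimmest. All arrays were on 1 slide, where row 1 held G93A/WT and WT/WT 1 and row 2 held G93A/G93A and WT/WT 2. Of the 6 skeletal muscle miRNAs listed, miR-206-3p, miR-1a-3p, miR-133a-3p and miR-133b-3p were detected on all 8 arrays, miR-499-5p on 1 and miR-208b-3p on none. The summed scaled signal of these 6 was 4090 to 5060 in G93A/G93A, 4340 to 5260 in G93A/WT and 4520 to 5190 in WT/WT. Of the 6 erythroid and serum miRNAs listed, miR-451a and miR-486a-5p were detected on all 8 arrays and miR-122-5p on 7. MiR-144-3p and miR-144-5p were detected on none, and miR-486b-5p was not on the array. Also detected on all 8 arrays were 1 of 4 leukocyte miRNAs (miR-223-3p) and 1 of 2 endothelial miRNAs (miR-126a-3p). The rest of the leukocyte and endothelial lists was detected on none. MiR-223-3p, a myeloid miRNA, had log2 means of 7.20 ± 0.15 in G93A/G93A, 7.12 ± 0.065 in G93A/WT and 6.69 ± 0.072 in WT/WT (SD, n = 3, 3 and 2), and was called higher in G93A/G93A against WT/WT (log2 difference 0.52 ± 0.12 SE, limma adjusted p = 0.0433). MiR-126a-3p was called in no comparison, at log2 means of 6.60, 6.69 and 6.83 in the same order of groups.

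Of the 10 members, 8 were present in every sample, and the exception to this was the miR-17 hairpin, whose arms were both near or below the limit of detection. Detected on all 8 arrays were miR-18a-5p, miR-19a-3p, miR-20a-5p, miR-19b-3p and miR-92a-3p of miR-17-92 and all 3 members of miR-106b-25. MiR-17-5p, the arm usually taken as the guide strand of its hairpin, was detected on 1 array of 8, and miR-17-3p, the opposite arm, on 5. With undetected values at the floor, limma called 1 tested member, miR-17-3p, lower in G93A/G93A against WT/WT and against G93A/WT, and this call was lost when undetected values were set at the miRNA's own detection limit. MiR-17-3p entered the test only through G93A/WT and WT/WT, where it was detected. No member passed the test between G93A/WT and WT/WT.

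**Figure D1:**
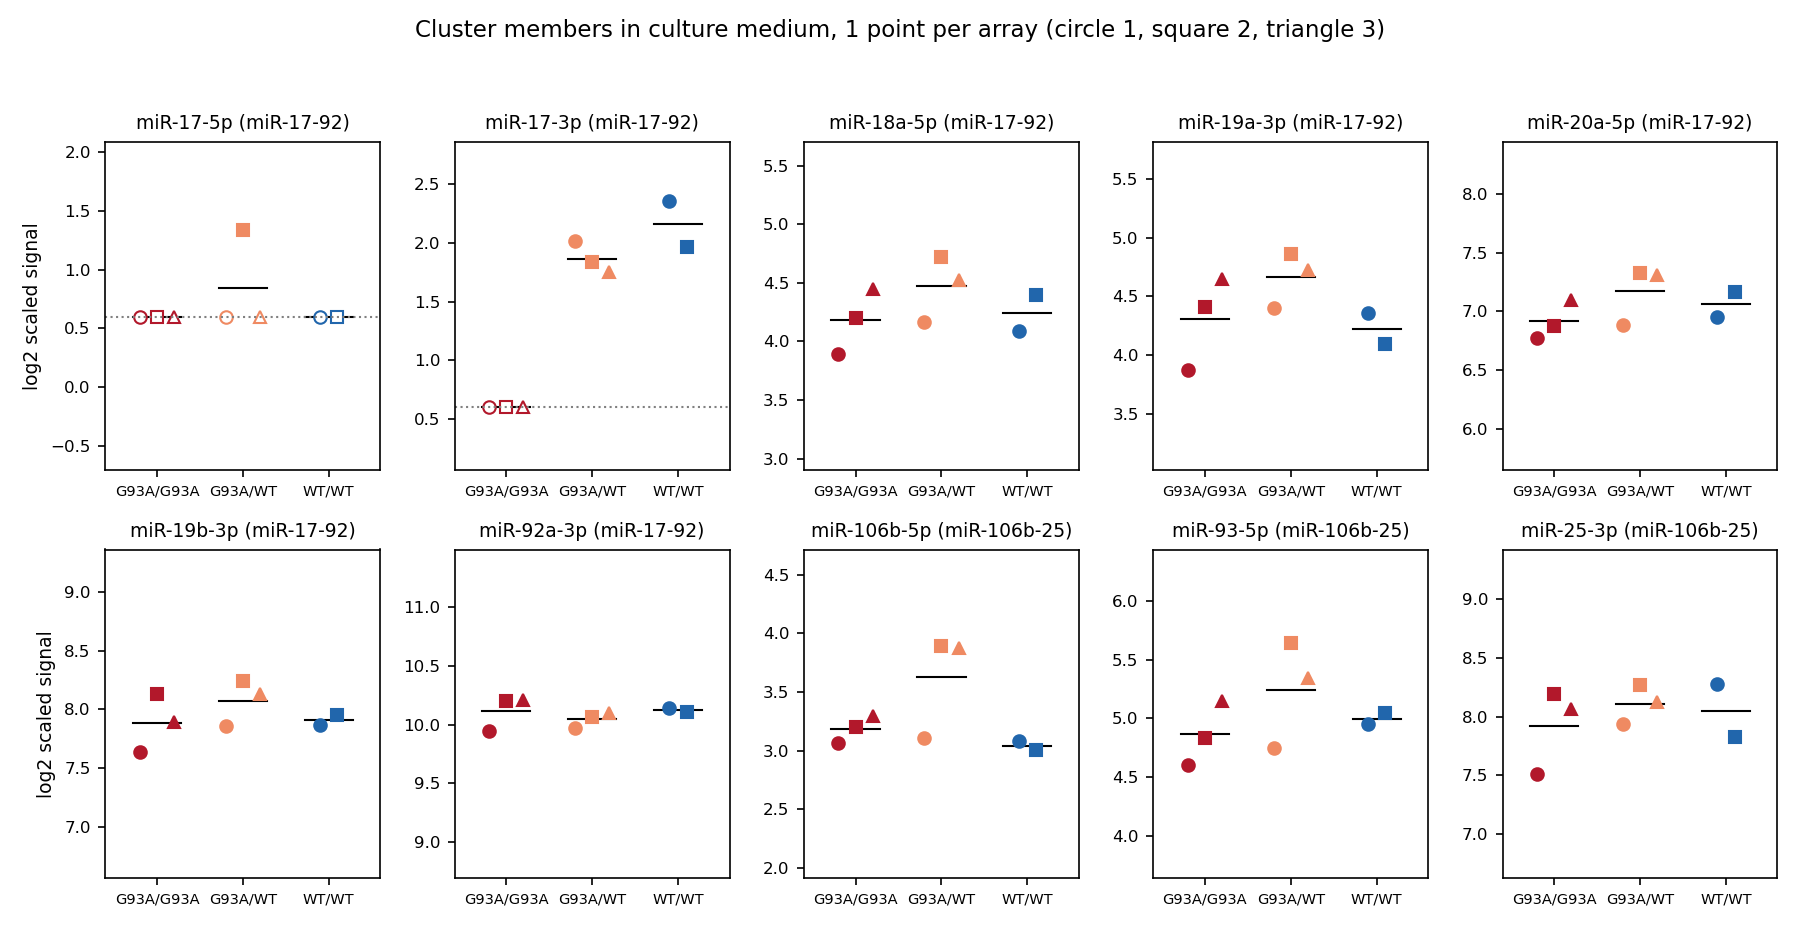
Log2 scaled signal of each of the 10 members (y axes, log2 units, each spanning the same width) by group, with 1 point per array, a bar at the group mean, open symbols for undetected values set at the floor and a dotted line at the floor. MiR-17-3p is at the floor in the 3 G93A/G93A samples and between 1.75 and 2.36 in the other 5, while most other members overlap between groups.

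MiR-17-5p gave a signal of 4.28 on G93A/WT 2, which is 3.91 times its error, and it was listed at 0.1, the value of an undetected miRNA, on the other 7 arrays. The single array that detected it was the brightest one. Detected on fewer than 2 arrays, miR-17-5p was not tested, and no difference between groups can be read from it.

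MiR-17-3p was listed at 0.1 on all 3 G93A/G93A arrays. Its scaled signals were 4.05, 3.57 and 3.37 on the G93A/WT arrays and 5.13 and 3.90 on the WT/WT arrays. The 3 G93A/G93A samples were thus the only ones in which it was undetected, and the ranges of G93A/WT and WT/WT overlapped. The mean log2 signal of the G93A/G93A group was the floor itself, against 1.87 ± 0.14 in G93A/WT (SD, n = 3) and 2.16 ± 0.28 in WT/WT (SD, n = 2). With the floor, the limma log2 difference was -1.56 ± 0.15 SE for G93A/G93A against WT/WT (adjusted p = 0.00301) and -1.27 ± 0.13 SE for G93A/G93A against G93A/WT (adjusted p = 0.00128). Neither is a bound on the change, because the floor lies below the level at which miR-17-3p itself could be detected. Between G93A/WT and WT/WT the log2 difference was -0.29 (95% interval -0.64 to 0.050, limma adjusted p = 0.247), and its sign turned to 0.12 and 0.48 when arrays were scaled on all detected miRNAs or not at all.

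The detected signals of miR-17-3p were weak, between 3.52 and 5.13 times their own error where 3 times was needed for detection. Its error averaged 1.06 units over the 5 arrays that detected it, so that on the G93A/G93A arrays a scaled signal of up to 3.67, 4.15 and 3.08 could have gone undetected. These limits average log2 1.85, against measured means of 1.87 in G93A/WT and 2.16 in WT/WT. With undetected values of every miRNA set at its own limit in this way, an alternative chosen after seeing the data, the log2 difference of miR-17-3p was -0.31 in G93A/G93A against WT/WT (limma adjusted p = 0.35) and -0.017 against G93A/WT (limma adjusted p = 0.944). A lower level in G93A/G93A was therefore not established at this signal strength. With the floor doubled, neither comparison passed (log2 difference -0.56, limma adjusted p = 0.0568 against WT/WT, and -0.27, adjusted p = 0.198 against G93A/WT). Arrays at the floor add no spread to the test, so its adjusted p may be too small. The comparison with G93A/WT also missed the threshold under quantile normalization (-0.80, limma adjusted p = 0.105), with the slide row as a block (-0.87, limma adjusted p = 0.182) and with the values of the authors' deposited table (-2.65, limma adjusted p = 0.0534). Within slide row 2, the 3 G93A/G93A arrays at the floor and WT/WT 2 differed by -1.36, with no spread to test it against.

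In the authors' deposited table miR-17-3p read 0.238, 0.276 and 0.253 for G93A/G93A, then 4.37, 0.660 and 1.41 for G93A/WT, and 4.32 and 4.91 for WT/WT. The G93A/G93A samples were lowest there too, but G93A/WT 2 and 3 were below WT/WT by more than in the scanner signals. On those 2 arrays, 26 and 29 detected miRNAs lay below 0.2 times their scaled scanner signal in that table, and none did on the other 6 arrays. The table's normalization is not known. MiR-17-5p is not in the table's rows used here.

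**Figure D2:**
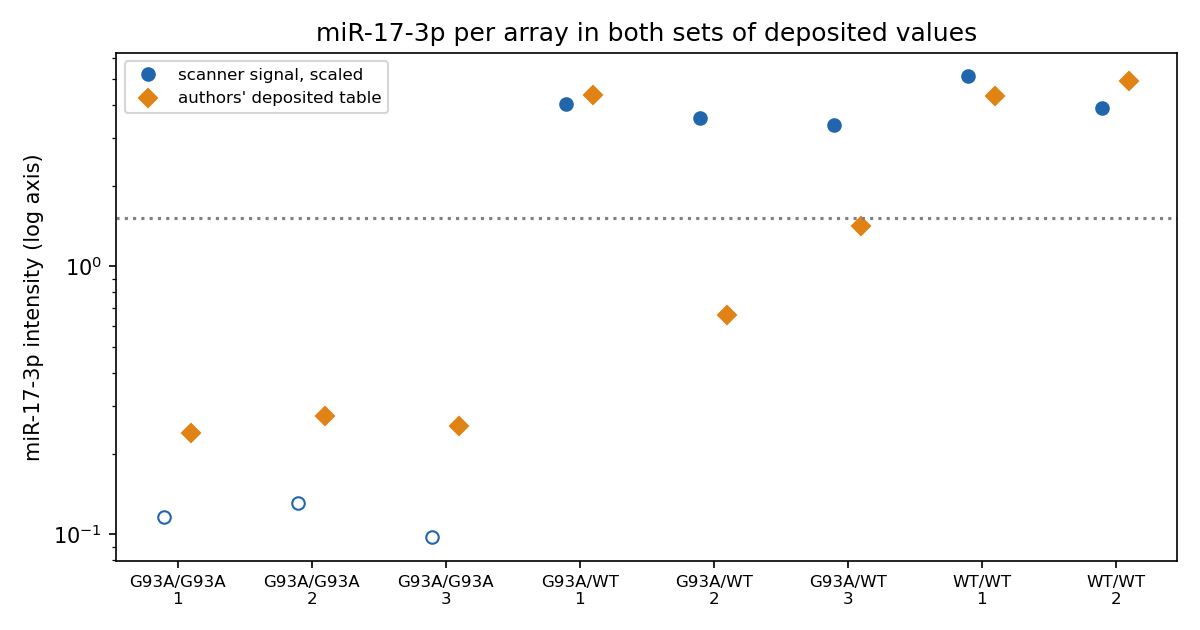
MiR-17-3p intensity on each array (log y axis, signal units) in the scaled scanner signals (circles, open where undetected) and in the authors' deposited table (diamonds), with a dotted line at the floor of 1.52 units. The sources place G93A/G93A lowest alike and differ for G93A/WT 2 and 3, where the deposited table reads 0.660 and 1.41.

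The difference between the arms (log2 of miR-17-5p minus log2 of miR-17-3p, undetected values at the floor) was 0 on every G93A/G93A array, where both arms were undetected. It was -1.42, -0.49 and -1.15 on the G93A/WT arrays and -1.76 and -1.36 on the WT/WT arrays. An exact 2-sided permutation test over arrays gave p = 0.1 for G93A/G93A against WT/WT (difference 1.56), p = 0.1 for G93A/G93A against G93A/WT (1.02) and p = 0.3 for G93A/WT against WT/WT (0.54), and 0.1 is the smallest p these group sizes allow. Since miR-17-5p was at the floor on 7 of 8 arrays, this difference mostly restates the values of miR-17-3p. The 0 in G93A/G93A was set by the floor, so its full separation from the other groups follows from which arrays detected miR-17-3p. The p-values of 0.1 from the permutation test are therefore no separate evidence. Of the other arms of the remaining hairpins, 8 on the array, 7 were detected on no array and miR-18a-3p on 1, so that none was tested.

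Markers of epithelial cells, like miR-17-3p, were undetected or lowest in G93A/G93A, though for miR-17-3p a lower level was not established. Unlike miR-17-3p, whose ranges overlapped there, their summed signal also separated G93A/WT from WT/WT. The summed scaled signal of the 7 listed epithelial miRNAs was 0 to 5.36 in G93A/G93A, 61.2 to 85.0 in G93A/WT and 138 to 166 in WT/WT. Of these 7, all 5 tested (miR-205-5p, miR-203-3p, miR-200b-3p, miR-200c-3p and miR-429-3p) were called lower in G93A/G93A against both other groups with undetected values at the floor. Of all tested miRNAs, 8.55% were called in either direction against WT/WT and 10.6% against G93A/WT. In G93A/WT against WT/WT, limma called 0 of the 5, where 3.9% of all tested miRNAs were called. MiR-203-3p, miR-200b-3p, miR-200c-3p and miR-429-3p were detected on no G93A/G93A array. They entered the test only through G93A/WT and WT/WT, and had no spread at the floor in G93A/G93A. MiR-200a-3p and miR-141-3p were detected on no array. With each miRNA's own detection limit in place of the floor, limma called 2 of the 5 against WT/WT (miR-205-5p and miR-203-3p) and 1 against G93A/WT (miR-205-5p). Of all 538 miRNAs, 12 were then called higher and 15 lower against WT/WT, and 24 higher and 10 lower against G93A/WT. The defining marker miR-205-5p had scaled signals of 5.36 and 4.74 on G93A/G93A 2 and 3 and was undetected on G93A/G93A 1, against 46.5, 62.4 and 51.6 in G93A/WT and 127 and 109 in WT/WT. The part of epithelial cells in the values of miR-17-3p was not tested. By the root-mean-square difference of log2 profiles over the 8 arrays, each centred on its own mean, the 3 miRNAs closest to miR-17-3p among 529 others were miR-200c-3p (0.098), miR-212-3p (0.18) and miR-181a-5p (0.21). These profiles share the same arrays and floor.

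Of the 4 members with the seed AAAGUGC, the 3 present in every sample tended to be highest on G93A/WT 2 and 3. MiR-20a-5p, from miR-17-92, had scaled signals of 109, 118 and 137 in G93A/G93A, 118, 160 and 158 in G93A/WT, and 124 and 144 in WT/WT. MiR-93-5p, from miR-106b-25, had 24.3, 28.5 and 35.5 in G93A/G93A, 26.8, 50.0 and 40.6 in G93A/WT, and 30.9 and 32.9 in WT/WT. For both, G93A/WT 2 and 3 were the highest samples while G93A/WT 1 lay among the other groups, so the groups overlapped. MiR-106b-5p had 8.40, 9.18 and 9.82 in G93A/G93A, 8.63, 14.8 and 14.7 in G93A/WT, and 8.47 and 8.04 in WT/WT. The G93A/WT samples were all above the WT/WT samples for miR-106b-5p, though G93A/WT 1 by little, and G93A/WT 1 fell inside the G93A/G93A range.

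MiR-106b-5p had the widest separation of the 8 in G93A/WT against WT/WT, at a log2 difference of 0.58 ± 0.24 SE (95% interval 0.0085 to 1.15), and it did not pass the threshold (limma adjusted p = 0.2, unadjusted 0.0475). Without G93A/WT 1 it passed, with a log2 difference of 0.84 ± 0.10 SE and a limma adjusted p of 0.0111, and likewise against that group in G93A/G93A (-0.69, limma adjusted p = 0.00896). With all arrays, the G93A/G93A minus G93A/WT difference was -0.44 (95% interval -0.95 to 0.075, limma adjusted p = 0.204). G93A/WT 2 and 3 are also the brightest arrays, and the part of brightness in these values was not tested. MiR-20a-5p and miR-93-5p differed by 0.11 and 0.25 in G93A/WT against WT/WT and by -0.26 and -0.38 in G93A/G93A against G93A/WT, and all 4 intervals included 0.

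MiR-18a-5p, whose seed AAGGUGC is its own within the clusters, had scaled signals of 14.9, 18.3 and 21.9 in G93A/G93A, 18.0, 26.4 and 22.9 in G93A/WT, and 17.1 and 21.0 in WT/WT. Its groups overlapped in all 3 comparisons, with log2 differences of -0.061 (95% interval -0.59 to 0.47) for G93A/G93A against WT/WT, 0.23 (-0.30 to 0.76) for G93A/WT against WT/WT and -0.29 (-0.76 to 0.18) for G93A/G93A against G93A/WT.

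The miR-19 members, which carry the seed GUGCAAA, followed a similar course. MiR-19a-3p had scaled signals of 14.7, 21.2 and 25 in G93A/G93A, 21.1, 29.1 and 26.4 in G93A/WT, and 20.4 and 17.1 in WT/WT. MiR-19b-3p had 199, 281 and 238 in G93A/G93A, 232, 302 and 280 in G93A/WT, and 233 and 248 in WT/WT. All G93A/WT samples lay above both WT/WT samples for miR-19a-3p but not for miR-19b-3p. Set against WT/WT, the G93A/WT samples differed on the log2 scale by 0.44 (95% interval -0.15 to 1.03, limma adjusted p = 0.302) for miR-19a-3p and 0.17 (-0.25 to 0.59, limma adjusted p = 0.565) for miR-19b-3p. Between G93A/G93A and WT/WT they were 0.086 (-0.50 to 0.68) and -0.020 (-0.44 to 0.40), and between G93A/G93A and G93A/WT -0.35 (-0.88 to 0.17) and -0.19 (-0.56 to 0.19).

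The members with the seed AUUGCAC, 1 from each cluster, varied in different ways. MiR-92a-3p, the last hairpin of miR-17-92, had scaled signals of 986, 1176 and 1183 in G93A/G93A, 1005, 1071 and 1096 in G93A/WT, and 1127 and 1105 in WT/WT (that is, group means of log2 10.12 ± 0.15, 10.05 ± 0.065 and 10.12 ± 0.020, SD, n = 3, 3 and 2). Its intervals were the narrowest of the 9 tested members, and its log2 differences were -0.0065 (95% interval -0.28 to 0.27) for G93A/G93A against WT/WT, -0.079 (-0.36 to 0.20) for G93A/WT against WT/WT and 0.073 (-0.18 to 0.32) for G93A/G93A against G93A/WT. Its G93A/WT samples all lay below both WT/WT samples, and the 95% interval of that difference included 0. MiR-25-3p had scaled signals of 182, 293 and 267 in G93A/G93A, 246, 308 and 279 in G93A/WT, and 310 and 227 in WT/WT. The WT/WT samples were themselves the highest and the second lowest of the 8 for miR-25-3p, and its log2 differences were -0.13 (-0.70 to 0.44), 0.059 (-0.51 to 0.62) and -0.19 (-0.69 to 0.32) in the same order of comparisons. The 3 miRNAs with profiles closest to miR-92a-3p, among 415 others detected on all 8 arrays, were miR-155-5p (0.073), miR-486b-3p (0.078) and miR-433-3p (0.082). The rule could not be applied to miR-17-5p, which was detected once.

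**Figure D3:**
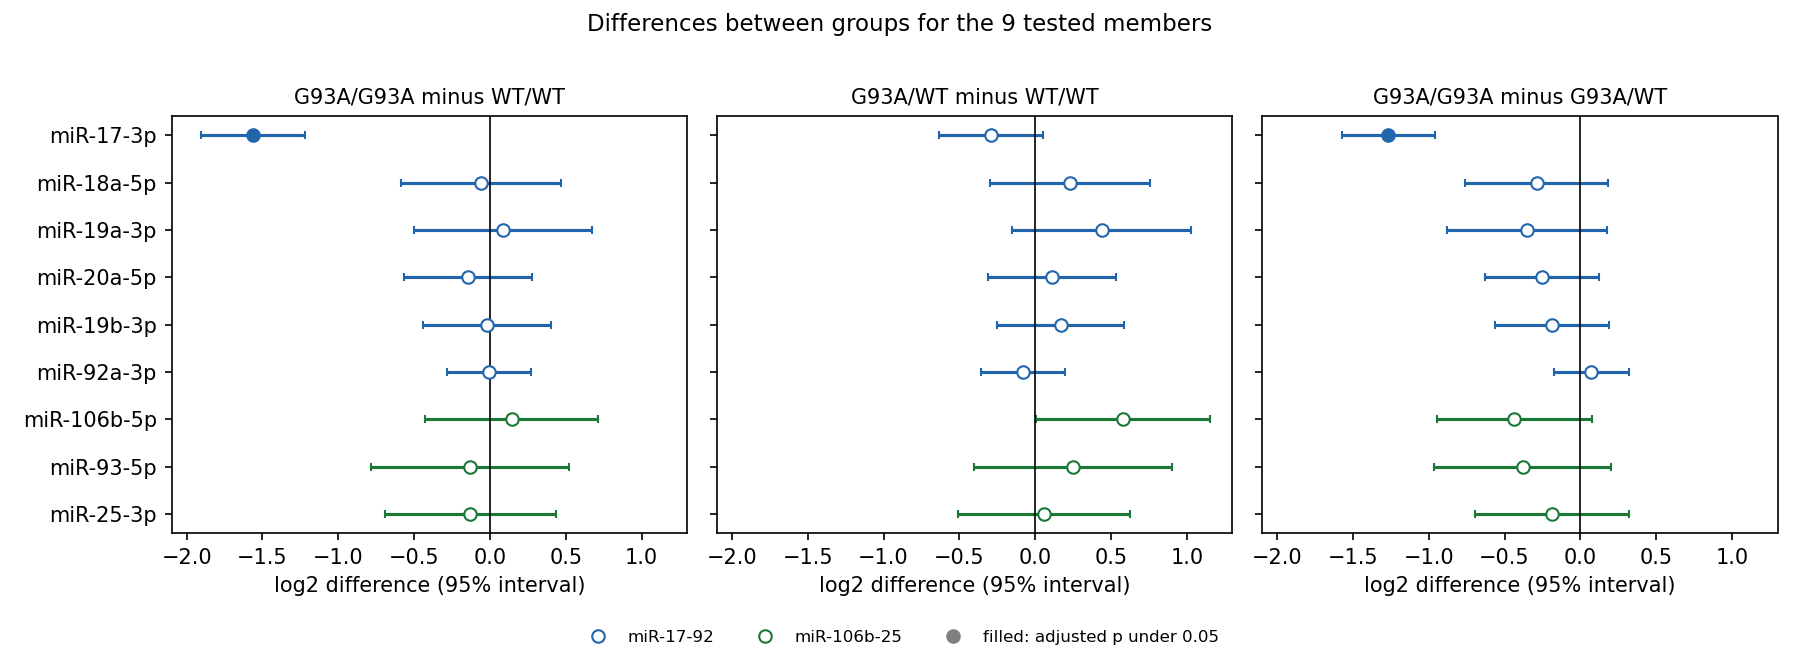
Log2 differences between groups (x axes, log2 units) for the 9 tested members with 95% intervals from limma, blue for miR-17-92 and green for miR-106b-25, filled where the adjusted p is under 0.05. MiR-17-3p alone is filled, at -1.56 against WT/WT and -1.27 against G93A/WT, values that hold with undetected signals at the floor.

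The share of members called was close to the share of all tested miRNAs called. Between G93A/G93A and WT/WT, limma called 1 of 9 tested members, miR-17-3p, where 8.55% of the 538 miRNAs were called. Its groups were also the only ones among the 9 that did not overlap, a state that 40.7% of all tested miRNAs shared. Members with a difference above 0 were 2 of 9, against 42.9% of all tested miRNAs, and the median member difference was -0.061 against -0.0061 over all. For 7 of the 8 members present in every sample the sign of this difference turned under at least 1 other processing or sample set, so no direction is read from it.

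Between G93A/WT and WT/WT, limma called 0 of 9 members, where 3.9% of all tested miRNAs were called, and 1 member (miR-106b-5p) had an unadjusted p under 0.05, a level that 24.5% of all reached. Without G93A/WT 1 the members called were 1, and of all 538 miRNAs 27 were then called higher and 7 lower. Groups did not overlap for 3 of 9 members (miR-19a-3p and miR-106b-5p higher in G93A/WT, miR-92a-3p lower), against 45.4% of all. The difference was above 0 for 7 of 9 members, against 55.4% of all, with a median of 0.17 against 0.043. With no scaling, miR-19a-3p and miR-106b-5p passed the test, but then the median of all 538 miRNAs was itself 0.79.

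Between G93A/G93A and G93A/WT, limma called 1 of 9 members, miR-17-3p, where 10.6% of all tested miRNAs were called. Without G93A/WT 1 the members called were 2, and of all 538 miRNAs 28 were then called higher and 53 lower. Groups did not overlap for 1 of 9 members, against 34.8% of all. The difference was above 0 for 1 of 9 members (miR-92a-3p), against 41.8% of all, with a median of -0.29 against -0.095. This comparison and the previous one share the G93A/WT samples, so the opposite signs of their medians are not separate evidence. No value could be had within a slide row, since no row held both groups.

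The clusters moved alike from sample to sample. Over the members detected on all 8 arrays, each centred on its own mean, miR-17-92 averaged -0.34, -0.0027 and 0.094 on the G93A/G93A arrays, -0.11, 0.28 and 0.19 on the G93A/WT arrays, and -0.086 and -0.023 on the WT/WT arrays. The same average for miR-106b-25 was -0.40, -0.051 and 0.042 in G93A/G93A, -0.19, 0.47 and 0.32 in G93A/WT, and -0.025 and -0.17 in WT/WT. For both clusters G93A/WT 2 was the highest sample, G93A/WT 3 the next and G93A/G93A 1 the lowest, and the spread within G93A/WT and within G93A/G93A was wider than the gap between most group means. Over all 423 miRNAs detected on every array the same average stayed between -0.057 and 0.051. The arrays were scaled on these same 423, which by itself holds their average near 0.

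**Figure D4:**
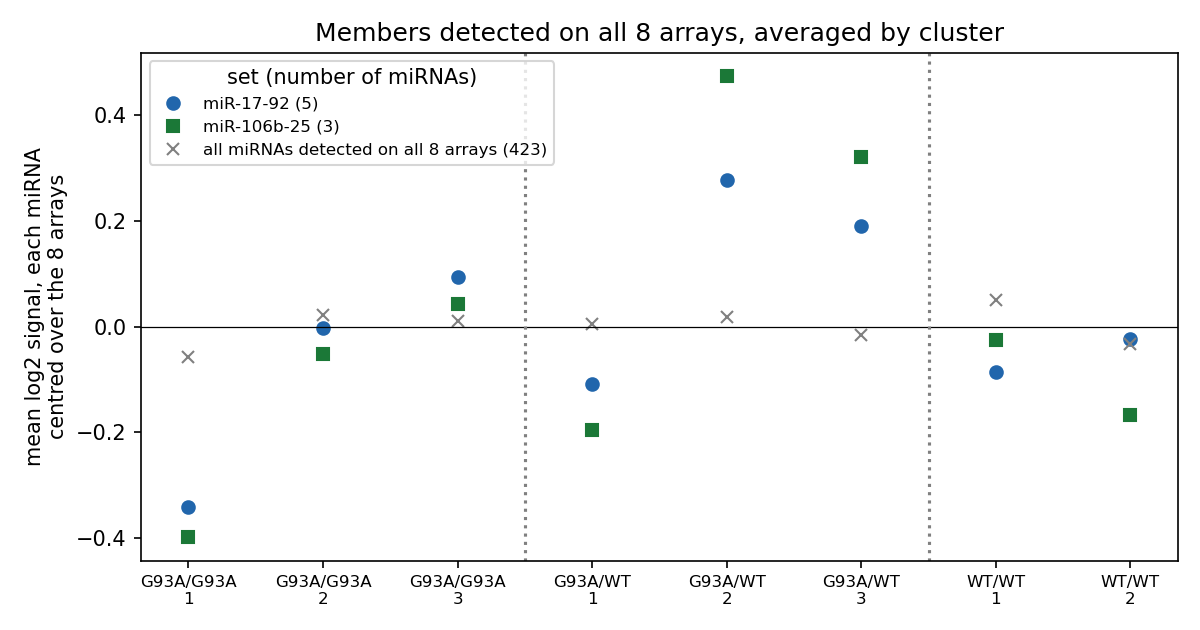
Mean log2 signal on each array (y axis, log2 units, each miRNA centred over the 8 arrays) for the 5 miR-17-92 members (circles) and the 3 miR-106b-25 members (squares) detected on all arrays, with all 423 such miRNAs as crosses. Both clusters are highest on G93A/WT 2 (0.28 and 0.47) and lowest on G93A/G93A 1 (-0.34 and -0.40).

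By cluster, the median log2 difference of the members present in every sample was -0.020 for miR-17-92 and -0.13 for miR-106b-25 in G93A/G93A against WT/WT, 0.17 and 0.25 in G93A/WT against WT/WT, and -0.26 and -0.38 in G93A/G93A against G93A/WT. These medians depended on single arrays. In G93A/WT against WT/WT the miR-106b-25 median was 0.50 without G93A/WT 1 and 0.048 without G93A/WT 2, and the miR-17-92 median was 0.28 without G93A/WT 1 and 0.078 without WT/WT 1. In G93A/G93A against G93A/WT the miR-106b-25 median was -0.63 without G93A/WT 1 and -0.18 without G93A/WT 2, while leaving out G93A/WT 1 gave -0.40 and leaving out G93A/G93A 1 gave -0.14 for miR-17-92. For G93A/G93A against WT/WT the medians ran across 0 leaving out 1 array, from -0.20 to 0.093 for miR-106b-25 and from -0.082 to 0.082 for miR-17-92. By seed, the G93A/WT minus WT/WT difference ran from 0.11 to 0.58 for the 3 tested AAAGUGC members, from 0.17 to 0.44 for GUGCAAA and from -0.079 to 0.059 for AUUGCAC. Neither grouping was tested, since members are not replicates.

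Pairs of members had similar profiles whether or not they shared a cluster or a seed. The median root-mean-square difference of the 8 members' centred log2 profiles was 0.19 over the 13 pairs from the same cluster and 0.21 over the 15 pairs from different clusters. It was 0.20 over the 5 pairs with the same seed and 0.21 over the 23 with different seeds. Over all pairs of the 423 miRNAs detected on every array it was 0.35. Whether closeness is particular to the members cannot be read from nearest profiles, since the pool of others is larger. Each of the 8 except miR-18a-5p had a closer profile among the 415 others than among the members. MiR-25-3p, for example, was at 0.082 from miR-5100 and at 0.16 from its closest member, miR-19b-3p. MiR-20a-5p was at 0.076 from miR-382-5p and at 0.092 from its closest member, miR-18a-5p. These are descriptions over 8 arrays of 1 slide, without a test.

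For the paralogous miR-106a-363 cluster on chromosome X, leaving aside miR-19b-3p and miR-92a-3p, which it shares with miR-17-92, 9 listed miRNAs were on the array, of which 7 were detected on no array and limma called neither of the 2 tested. Its miR-20b-5p, which differs from miR-17-5p by U10C and C12U, was also the only detected one of 9 further array miRNAs that carry a member's seed.
miR-20b-5p: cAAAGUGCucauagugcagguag

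This sequence is shown because miR-20b-5p, unlike miR-17-5p, was detected on all 8 arrays. Its scaled signals were 37.8, 41.6 and 48.3 in G93A/G93A, 45.2, 56.7 and 57.4 in G93A/WT, and 46.3 and 36.8 in WT/WT. G93A/WT 2 and 3 were the highest samples, as with the tested members of its seed and with miR-18a-5p and miR-19a-3p, which have other seeds. The G93A/WT minus WT/WT difference of miR-20b-5p, 0.36, did not pass (limma adjusted p = 0.245). MiR-92a-2-5p, the other detected product of that cluster, had log2 means of 3.37, 3.20 and 2.89 in G93A/G93A, G93A/WT and WT/WT, and its G93A/G93A minus WT/WT difference of 0.48 did not pass either (limma adjusted p = 0.108, unadjusted p under 0.05).

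Of 12 other miRNAs linked to proliferation or its arrest (miR-15a-5p, miR-15b-5p, miR-16-5p, miR-195a-5p, miR-322-5p, miR-503-5p, miR-21a-5p, miR-221-3p, miR-222-3p, miR-27a-3p, miR-27b-3p and miR-34a-5p), 11 were tested and miR-222-3p was detected on no array. Limma called 0 of the 11 in each comparison. Of all tested miRNAs, 8.55% were called for G93A/G93A against WT/WT, 3.9% for G93A/WT against WT/WT and 10.6% for G93A/G93A against G93A/WT. At an unadjusted p under 0.05 they numbered 2 for G93A/G93A against WT/WT, 1 for G93A/WT against WT/WT and 5 for G93A/G93A against G93A/WT, where 26.6%, 24.5% and 32.2% of all tested miRNAs reached that level. In G93A/G93A against G93A/WT, 0 of the 11 differences were above 0, against 41.8% of all tested miRNAs, with a median of -0.52 against -0.095. In G93A/WT against WT/WT, 10 of the 11 were above 0, against 55.4% of all, with a median of 0.13 against 0.043. Both comparisons share the G93A/WT samples. In G93A/G93A against G93A/WT, miR-34a-5p, miR-21a-5p and miR-322-5p had the lowest adjusted p of the 11, and none of them passed. For the rest of the 11, the limma adjusted p ran from 0.115 (miR-15b-5p) to 0.515 (miR-16-5p). MiR-34a-5p, a p53 target, had log2 means of 3.26 in G93A/G93A, 4.02 in G93A/WT and 4.05 in WT/WT (limma adjusted p = 0.0758 for G93A/G93A against G93A/WT). MiR-21a-5p, induced in many growing and injured tissues, had 8.86, 9.49 and 9.37 (limma adjusted p = 0.083 for the same comparison). MiR-322-5p, of the miR-15/16 family that restrains the cell cycle, had 4.85, 5.23 and 5.19 (limma adjusted p = 0.0868).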

How the data were processed

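Small RNA (150 ng) from 600 µl of medium was Cy3-labelled and hybridised to 1-colour Agilent mouse miRNA arrays, 1 per sample, per the labels' protocols. The deposited files hold, per the file headers, an intensity per miRNA (total gene signal, linear), its error and a detected flag. The flag equalled a signal above 3 times its error for all 1881 miRNAs on all arrays, and undetected miRNAs are listed at 0.1. The authors' deposited table of 492 mouse miRNAs was taken as linear intensity from its values. Version and background correction of the scanner software: not given in the sources used here.

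Signals were scaled to an equal 75th percentile over the 423 miRNAs detected on all arrays, floored at 1.52 units (the median over arrays of the lowest detected scaled signal), and taken to log2. The test was limma 3.58.1 (R 4.3.3; lmFit then eBayes over all 8 arrays), with Benjamini-Hochberg adjustment over 538 miRNAs at 0.05. The script was tested on simulated data. Samples are biological replicates per the labels, and 2 or 3 arrays per group limit the precision. Alternatives covered scaling, floor (with each miRNA's own detection limit added after seeing the data), filter, the deposited table, variance model, slide row and column, replicate number and leaving out each array. All 10 members are named, and further listed miRNAs by count and where detected on all 8 arrays or called. The members and lists were chosen with earlier results of these data known. Sequences and coordinates come from RefSeq (GRCm38.p6), in which 1608 of the array's miRNAs matched by name.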

Additional observations from a re-analysis of the deposited data

How the results depend on the processing

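Of the calls on members, the lower miR-17-3p in G93A/G93A passed under 19 of the 21 alternatives with a test against WT/WT (adjusted p 0.000221 to 0.35) and under 17 of 22 against G93A/WT (adjusted p 5.24e-05 to 0.944), with the same sign under every one. Neither passed with each miRNA's own detection limit as floor, an alternative chosen after seeing the data. Most alternatives left the G93A/G93A arrays at a floor without spread, so these counts do not measure how robust the calls are. Some alternatives were also the same fit. Against WT/WT, the slide row as a block and leaving out WT/WT 1 both gave -1.36. No filter and detection on at least 1 array both gave -1.56. Members called against WT/WT in G93A/G93A were 0 rather than 1 with the floor doubled, with the own detection limit, within row 2, where miR-17-3p had no spread to test, and among miRNAs detected on all 8 arrays, a filter that leaves out miR-17-3p. Members called in G93A/G93A against G93A/WT were 0 with the floor doubled, with the own detection limit, among miRNAs detected on all 8 arrays, under quantile normalization, with the slide row as a block and with the authors' values, and 2 with no scaling and without G93A/WT 1 (range 1 to 2 leaving out 1 array at a time). Members called in G93A/WT against WT/WT were 2 with no scaling, and 0 to 1 leaving out 1 array, 1 being without G93A/WT 1. Where no construction above explains a change, the cause was not tested.

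Scaling moved all miRNAs together. The median of all tested miRNAs shifted to 0.44 (scaling on all detected miRNAs) and 0.79 (no scaling) in G93A/WT against WT/WT, and to -0.34 and -0.68 in G93A/G93A against G93A/WT. Under these 2 settings the cluster medians in G93A/WT against WT/WT became 0.58 and 0.94 for miR-17-92 and 0.66 and 1.02 for miR-106b-25, and in G93A/G93A against G93A/WT -0.52 and -0.86 for miR-17-92 and -0.65 and -0.99 for miR-106b-25. Leaving out 1 array, the miR-106b-25 median ran from 0.048 to 0.50 in G93A/WT against WT/WT and from -0.63 to -0.18 in G93A/G93A against G93A/WT.

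Signs turned for uncalled members with small differences. In G93A/G93A against WT/WT, scaling on all detected miRNAs and no scaling gave 0.087 and 0.10 for miR-18a-5p, 0.0044 and 0.020 for miR-20a-5p, 0.13 and 0.14 for miR-19b-3p, 0.14 and 0.16 for miR-92a-3p, 0.015 and 0.031 for miR-93-5p and 0.018 and 0.034 for miR-25-3p. The authors' values gave 0.056 for miR-19b-3p, 0.012 for miR-20a-5p and 0.13 for miR-92a-3p, and quantile normalization 0.023 for miR-19b-3p. The slide row as a block and the fit within row 2 both gave 0.093 for miR-25-3p and 0.0076 for miR-92a-3p. Leaving out 1 array, this comparison ran from -0.21 to 0.089 for miR-18a-5p, -0.082 to 0.30 for miR-19a-3p, -0.14 to 0.11 for miR-19b-3p, -0.052 to 0.080 for miR-92a-3p and -0.35 to 0.093 for miR-25-3p. In G93A/WT against WT/WT, scaling on all detected miRNAs and no scaling gave 0.12 and 0.48 for miR-17-3p and 0.33 and 0.69 for miR-92a-3p, for which the authors' values gave 0.16. For miR-25-3p in that comparison, median scaling gave -0.053, the slide row as a block and the fit within row 1 both gave -0.16, and leaving out 1 array -0.16 to 0.28. In G93A/G93A against G93A/WT, miR-92a-3p became -0.19, -0.53, -0.034 and -0.056 with scaling on all detected miRNAs, no scaling, the authors' values and quantile normalization, and miR-25-3p became 0.26 with the slide row as a block and ran from -0.32 to 0.017 leaving out 1 array.

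Counts over all miRNAs moved more. The 46 called in G93A/G93A against WT/WT became 10 with scaling on all detected miRNAs, 29 among those detected on all 8 arrays, 14 with no scaling, 7 with slide row blocked, 0 within row 2 (46 miRNAs without spread left out, 60 at an unadjusted p under 0.05) and 27 with the own detection limit, and ran from 7 (without WT/WT 1) to 57 leaving out 1 array. The 21 called in G93A/WT against WT/WT became 42 with scaling on all detected miRNAs, 130 with no scaling and 12 with quantile normalization. They became 5 with the authors' values and 34 with the floor doubled. In a fit of only those detected on all 8 arrays, 0 were called (103 at an unadjusted p under 0.05). With the own detection limit 0 were called (134 unadjusted). Leaving out 1 array gave up to 61 (without G93A/G93A 3). The 57 called in G93A/G93A against G93A/WT became 149 with no scaling, 34 with the own detection limit and 0 with the slide row as a block (73 unadjusted), and ran from 38 to 122 (without G93A/G93A 3).

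Whether replicate numbers pair the samples could not be settled from the values. The deviations of same-numbered arrays correlated at r = 0.018, -0.051 and -0.249 between G93A/G93A and G93A/WT, -0.313 and -0.215 for G93A/G93A with WT/WT, and 0.214 and 0.306 for G93A/WT with WT/WT. Arrays with different numbers ran from -0.365 to 0.434, -0.21 to 0.313 and -0.306 to 0.035 in the same order. The 2 WT/WT arrays mirror each other around their mean, so their correlations are not separate values. With the replicate number as a block, miRNAs called were 10 (G93A/G93A against WT/WT), 8 (G93A/WT against WT/WT) and 37 (G93A/G93A against G93A/WT), the members called stayed at 1, 0 and 1, and the miR-19a-3p difference in G93A/G93A against WT/WT became -0.013. The column block could be fitted only between G93A/G93A and G93A/WT, and the authors' values hold no miR-17-5p for the difference between arms. Weak signal limits miR-17-5p and miR-17-3p, and 2 or 3 arrays per group limit every comparison.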
